A study of Drosophila melanogaster with 2 samples.

Results

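The genes described here are 32 genes of synapses and ion channels, set beside the places where the zinc finger protein CG12605 was found on chromatin in Drosophila melanogaster pupae. They were taken as a list of symbols, chosen with earlier results of these data known. Each symbol was found once among the 13945 protein-coding genes on the 6 main chromosome arms of the Ensembl BDGP6 annotation, release 115. The list holds 9 genes of synaptic vesicles and release, 4 of sodium and calcium channels, 6 of potassium channels, 6 of transmitter synthesis and vesicular transport, 4 transmitter receptor genes, and 3 genes of an ion pump, the cytoskeleton and the membrane. Peak lists hold no expression values, so whether these genes were active in the animals could not be read from the data.

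Chromatin came from whole pupae, aged 1 day, of transgenic flies that express CG12605 fused to enhanced green fluorescent protein (CG12605-eGFP), and was precipitated with an antibody against GFP. There are 2 biological replicates of this 1 group, and no wild-type, mutant or untagged group was analysed here. The labels name an insertion aimed at CG12605 and a single fly donor for both replicates, and do not say which promoter drives the fusion or whether it adds a copy of the gene. In chromatin of whole animals, binding in few cells and weak binding in many cells cannot be told apart.

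Neurons signal by opening ion channels along the axon and by fusing transmitter-filled vesicles with the membrane at the synapse. Sodium and calcium channels carry current into the cell, potassium channels end the impulse, and a calcium-triggered machine of SNARE proteins and their regulators drives release. CG12605 belongs to the Snail and Scratch family of zinc finger proteins, whose members bind E-boxes, short DNA sequences of the form CANNTG in which N is any base. Scratch proteins are known from the nervous system, and Snail family proteins are known mostly as repressors of transcription.

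Peaks are described from the authors' lists on the dm6 assembly. Results rest mainly on the conservative list, with 6776 peaks, each replicate has a shorter list of its own, and longer ranked lists hold many weaker peaks. A summit is the point within a peak where the authors placed its maximum. The signal of a peak is the authors' own value. The sources used here do not give its scaling, so it serves only to rank peaks within a list. The irreproducible discovery rate (IDR) says how well the rank of a peak repeats, and the conservative list holds peaks at an IDR of at most 0.01. Read depth is unknown, so no precision could be given to a single signal.

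Sequences around 5 summits are shown first, because they show which of these genes carry the Scratch sequence at a summit and which do not. Each holds the summit base and 50 bases on either side from the dm6 reference (RefSeq, Release 6), on the strand of the gene. Capitals mark every E-box of the form CANNTG and every copy of the 9-base sequence CAACAGGTG, which Scratch proteins bind and which reads CACCTGTTG on the other strand. The first pair flanks the start of unc80, at chr3R:27663035-27663135 and chr3R:27661576-27661676, plus strand. The next pair lies in introns of Ca-beta, at chr2L:11168233-11168333 and chr2L:11184311-11184411, minus strand. The last is the start region of ple, at chr3L:6719547-6719647, minus strand, which has no E-box.
unc80, 646 bp downstream: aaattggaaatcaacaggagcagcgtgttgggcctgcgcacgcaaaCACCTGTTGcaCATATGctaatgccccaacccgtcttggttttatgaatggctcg
unc80, 813 bp upstream: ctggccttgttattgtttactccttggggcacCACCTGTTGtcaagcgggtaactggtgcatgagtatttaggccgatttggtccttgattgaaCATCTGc
Ca-beta, 387 bp upstream: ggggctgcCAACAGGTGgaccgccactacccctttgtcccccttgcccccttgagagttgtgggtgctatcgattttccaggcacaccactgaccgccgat
Ca-beta, 13485 bp upstream: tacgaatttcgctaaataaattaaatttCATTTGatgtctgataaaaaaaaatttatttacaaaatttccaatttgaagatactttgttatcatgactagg
ple, 72 bp upstream: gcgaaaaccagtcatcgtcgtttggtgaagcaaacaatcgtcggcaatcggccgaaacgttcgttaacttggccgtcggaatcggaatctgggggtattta

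Few of the 32 genes had a conservative summit. A summit lay within 1000 bp of an annotated start site in 5 of 32 (15.6%), against 23.1% of all 13945 protein-coding genes. These were the channel genes unc80, Ca-beta and Sh and the amine genes ple and Vmat. A summit lay in the gene body, from the first to the last annotated base, in 6 of 32 (18.8%), against 15.7% of all protein-coding genes. These were Syn, Ca-beta, unc80, Sh, ChAT and Vmat. In all, 7 genes had a summit in either place and 25 had none. The share of all protein-coding genes with a summit in either place was not computed.

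The genes are long, and length has to be kept in view when bodies are compared. Their median length was 29.7 kb, against 2.17 kb for all protein-coding genes. Among genes of 20 kb or longer, a conservative summit lay in the body of 5 of 21 synaptic and channel genes (23.8%), against 60.8% of all 1013 such genes. At start sites the counts were 3 of 21 (14.3%), against 49.6% of long genes. In bins of length, bodies with a summit numbered 3 of 8 from 20 to 40 kb, against 58.2% of all genes of that length. They numbered 1 of 10 from 40 to 80 kb, against 63.4%, and 1 of 3 from 80 kb upward, against 65.4%. In every bin the share among the synaptic and channel genes was thus below that of all genes of like length, in small numbers and with no test.

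The bodies of the 32 genes together cover 1340 kb and held 9 conservative summits, or 0.672 per 100 kb. Snap25 takes up 225 kb of this and held 0 of them. All protein-coding genes held 4690 in 89953 kb, or 5.21 per 100 kb, and those of 20 kb or longer held 2473 in 50843 kb, or 4.86 per 100 kb. The bodies of the 25 genes with no summit at a start or in the body cover 1066 kb. The number of annotated start sites matters too, since each adds sequence in which a summit can fall. Genes with 1 start site had a summit there in 2 of 13 cases, close to the 16.4% of all such genes. Those with 2 had one in 0 of 6, against 34.4%, and those with 3 or more in 3 of 13, against 58.3%.

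**Figure D1:**
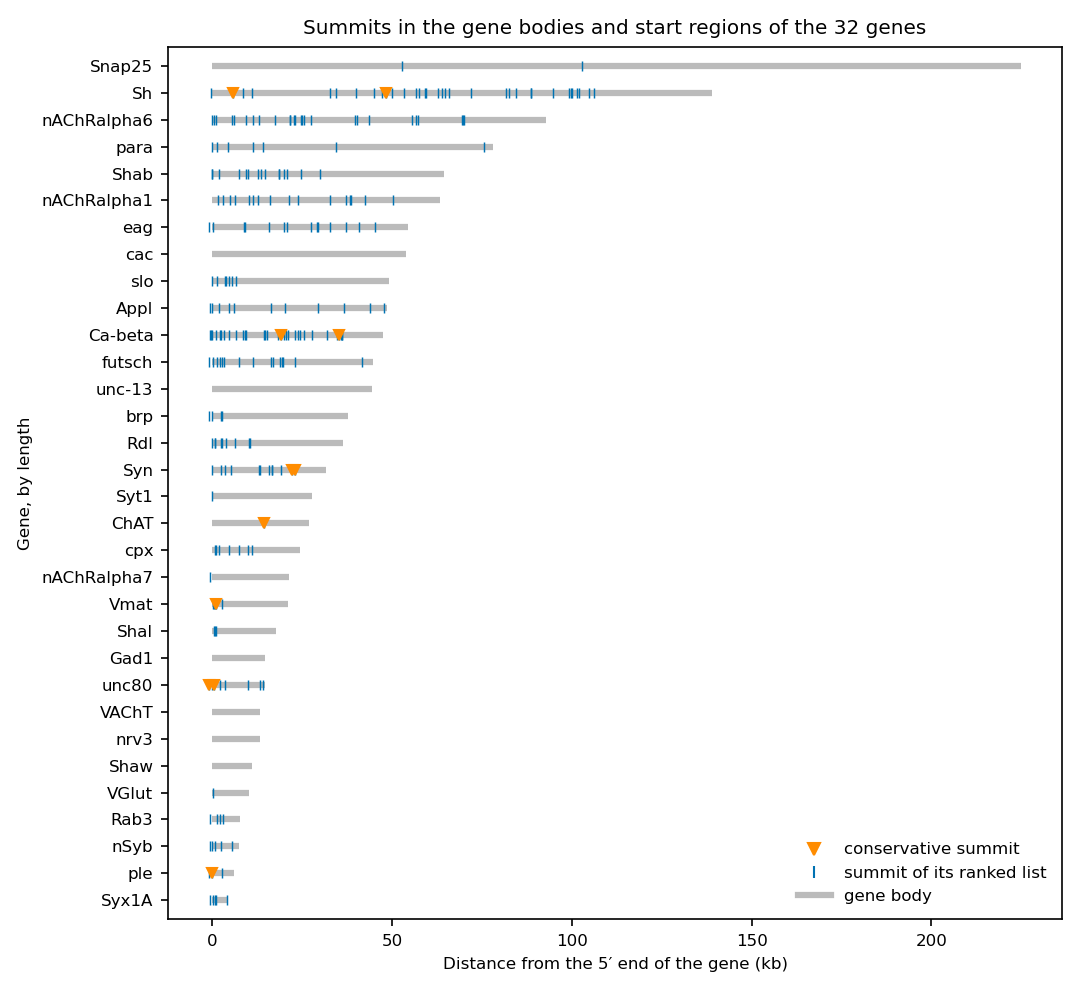
Summits along the 32 genes, drawn from the 5′ end of each gene (x axis, distance in kb; the start region upstream is included) and ordered by length from Snap25 at 225 kb to Syx1A at 4.16 kb. Grey bars are gene bodies, orange triangles conservative summits and blue ticks summits of the ranked list they were drawn from. Triangles stand on 7 genes, while ticks are spread along most of the long genes, such as Sh and nAChRalpha6.

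The 11 conservative summits of these genes lay in introns or upstream. None lay in an exon, 9 lay in introns and 2 lay upstream of the gene. Of the 6 within 1000 bp of a start site, 5 were upstream of that site. Start sites inside a gene took part in this: at Ca-beta, Sh and Vmat the start site in question is internal, so the summit is upstream of a shorter transcript and in an intron of a longer one. No start site of another protein-coding gene lay within 1000 bp of 9 of the 11 summits. The exceptions are both in Syn.

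Among the sodium and calcium channel genes, 2 of 4 had a summit at a start site, against 23.1% of all protein-coding genes. The strongest peak of any of the 32 genes was at unc80 (FBgn0039536, 3R, 27662439 to 27677099, plus strand), which encodes an auxiliary subunit of the NALCN-type sodium leak channel that sets resting excitability. Its summit at 27663085, in an intron 646 bp from the only annotated start site, had a signal of 262 and exceeded 93.1% of conservative peaks. Replicate 1 gave this peak 112, above 98.7% of its ranked list, and replicate 2 gave it 147, above 99.0% of its own. The unc80 peak 813 bp upstream of the start, at 27661626, had a signal of 183. The replicates gave it 79.8 (replicate 1) and 103 (replicate 2). Both unc80 peaks were in the thresholded lists of both replicates.

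Ca-beta encodes the cytoplasmic beta subunit that brings voltage-gated calcium channels to the membrane (FBgn0287724, 2L, 11156118 to 11203544, minus strand). Its summit at 11168283, 387 bp upstream of an internal start site, had a signal of 140, with 36.8 in replicate 1 and 98.0 in replicate 2. The other summit, at 11184361, lay deep in an intron 13485 bp from the nearest start site of the gene. It had a signal of 168, with 52.1 in replicate 1 and 114 in replicate 2. Both peaks were in the thresholded lists of both replicates. For the channel pores themselves the picture was different: para, the voltage-gated sodium channel of the axon, had its nearest conservative summit 19617 bp from a start site, and cac, the presynaptic calcium channel, 18579 bp.

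Of the 6 potassium channel genes, Sh alone had a conservative summit, both at a start site and in the body. The shares of all protein-coding genes were 23.1% at start sites and 15.7% in bodies. Sh encodes the fast-inactivating Shaker channel (FBgn0003380, X, 17924307 to 18063247, minus strand) and has 8 annotated start sites. The summit at 18014796, 291 bp upstream of an internal start site, had a signal of 140. It had 88.0 in the thresholded list of replicate 2 and 45.8 in the ranked list of replicate 1, where its IDR of 0.011 left it just outside the limit. The summit at 18057398, in an intron 5849 bp from a start site, was weaker, at 78.0. That peak was in the thresholded list of replicate 1 at 39.6 and only in the ranked list of replicate 2, at 32.3 with an IDR of 0.0276. Each Sh peak therefore passed in a single replicate list, and not in the same one.

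The other 5 potassium channel genes had none. The nearest conservative summit to a start site lay 2042 bp away for eag, whose channel shapes excitability at nerve terminals, and 6051 bp for Shal, which carries the transient current of cell bodies. It lay 9113 bp away for Shaw, 11114 bp for slo, the calcium-activated channel, and 15086 bp for Shab, a delayed rectifier. Each of these summits was nearest to the start site of another gene. The one next to Shal, with a signal of 1063, lay 95 bp from the start of CG14100, and the one next to eag, with 26.0, lay 97 bp from pdgy.

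Of the 6 genes of transmitter synthesis and vesicular transport, 3 had a peak, with signals of 61.2 to 64.8. At a start site it was 2 of 6, against 23.1% of all protein-coding genes, and in the body 2 of 6, against 15.7%. The start region of ple was called in the conservative list but in no other thresholded list (FBgn0005626, 3L, 6713356 to 6719525, minus strand). ple encodes tyrosine hydroxylase, which makes the precursor of dopamine and also serves the hardening and darkening of cuticle. Its peak had a signal of 64.6 and an IDR of 0.00414. In replicate 1 the peak was ranked at 26.4 with an IDR of 0.446, and replicate 2 had no ranked peak within 1000 bp of the start site. This was the only 1 of the 11 peaks that was in neither thresholded replicate list, a state shared by 26% of all conservative peaks.

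Vmat encodes the vesicular transporter of dopamine, serotonin and other amines (FBgn0260964, 2R, 13513132 to 13534251, minus strand). A peak of signal 64.8 at 13533098 lay 109 bp upstream of an internal start site. Replicate 2 had it in its thresholded list at 36.4, and replicate 1 in its ranked list at 25.6 with an IDR of 0.474. ChAT encodes choline acetyltransferase, which makes acetylcholine, the main fast excitatory transmitter of the insect brain (FBgn0000303, 3R, 18705501 to 18732344, plus strand). Its peak at 18719981, at a signal of 61.2, was intronic, 14480 bp from the start site and 358 bp from the noncoding gene lncRNA:CR46265. Replicate 2 had it at 42.2 in its thresholded list, and replicate 1 at 22.1 with an IDR of 0.562 in its ranked list. VAChT, the vesicular acetylcholine transporter, shares the start of ChAT at 18705501, and that summit lies beyond its 3′ end. Gad1, which makes GABA, and VGlut, which loads glutamate into vesicles, had their nearest conservative summits 13927 and 12603 bp from a start site.

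Of the 9 genes of vesicles and release, none had a conservative summit at a start site, against 23.1% of all protein-coding genes. Syn alone had any in the body, 1 of 9, against 15.7% of all protein-coding genes. Syn encodes synapsin, which holds vesicles in reserve (FBgn0004575, 3R, 10190689 to 10222442, plus strand). The summit at 10213645 had a signal of 131, with 70.5 in replicate 1 and 64.2 in replicate 2, both thresholded. The summit at 10213014 had a signal of 63.4, with 40.4 in the thresholded list of replicate 2 and 35.1 in the ranked list of replicate 1. Timp, the tissue inhibitor of metalloproteases, starts inside Syn, and these summits lay 638 and 7 bp from its start site but over 22 kb from that of Syn. Without the Timp start region, 5 genes and not 6 have a summit in the body.

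Core release genes were without conservative summits. Those of the SNARE proteins nSyb, Syx1A and Snap25, the calcium sensor Syt1, the fusion clamp cpx, the priming factor unc-13, the active zone scaffold brp and the vesicle GTPase Rab3 had none at a start or in the body. The nearest summits to their start sites ranged from 1834 bp for nSyb to 1195284 bp for Snap25, which lies in the region around the centromere of 3L. unc-13 lies on chromosome 4, where the nearest summit was 58945 bp away. Neither Snap25 nor unc-13 held a conservative summit in the body, so leaving them out could not change the count of 5 long genes with one. The share of all long genes away from those places was 61.6%. In the series-level list, the other thresholded list drawn from both replicates, cpx did have a summit at a start site and in the body. Syx1A had a pair of ranked peaks at its start that met the IDR limit but are not in the conservative list. The stronger had a signal of 88.3 and an IDR of 0.00173 with its summit 118 bp downstream of the start site (3R, 24105645), at 43.3 in replicate 1 and 32.9 in replicate 2. In all, 181 ranked peaks met the limit without being in the conservative list, which had another input besides the ranked list, not analysed here.

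The 4 receptor genes had no conservative summit either, against 23.1% of all protein-coding genes at start sites and 15.7% in bodies. nAChRalpha1, nAChRalpha6 and nAChRalpha7 encode subunits of nicotinic acetylcholine receptors, and Rdl encodes a GABA-gated chloride channel. The nearest summit lay 4598 bp from the start of nAChRalpha7, 20557 bp from that of nAChRalpha6, 43024 bp from a start of Rdl and 86102 bp from that of nAChRalpha1. The body of nAChRalpha6 spans 92.9 kb and held 26 summits of the ranked list but 0 of the conservative one. Of the remaining 3 genes, futsch, a microtubule-associated protein of synaptic boutons, had its nearest summit at 9615 bp and nrv3, a subunit of the sodium and potassium pump, at 65926 bp. Appl, the fly relative of the amyloid precursor protein, had it at 7015 bp, a peak with a signal of 410 that is 260 bp from the start site of elav.

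The 1000 bp limit separates genes that lie close to it. Just inside was unc80, at 646 bp. Just outside were Syn at 1008 bp, nSyb at 1834 bp and Rab3 at 2000 bp. These outside summits lay nearer to other genes: 78 bp from CG12814 with a signal of 172, 125 bp from Bgb with 68.8, and 132 bp from CG7220 with 315.

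**Figure D2:**
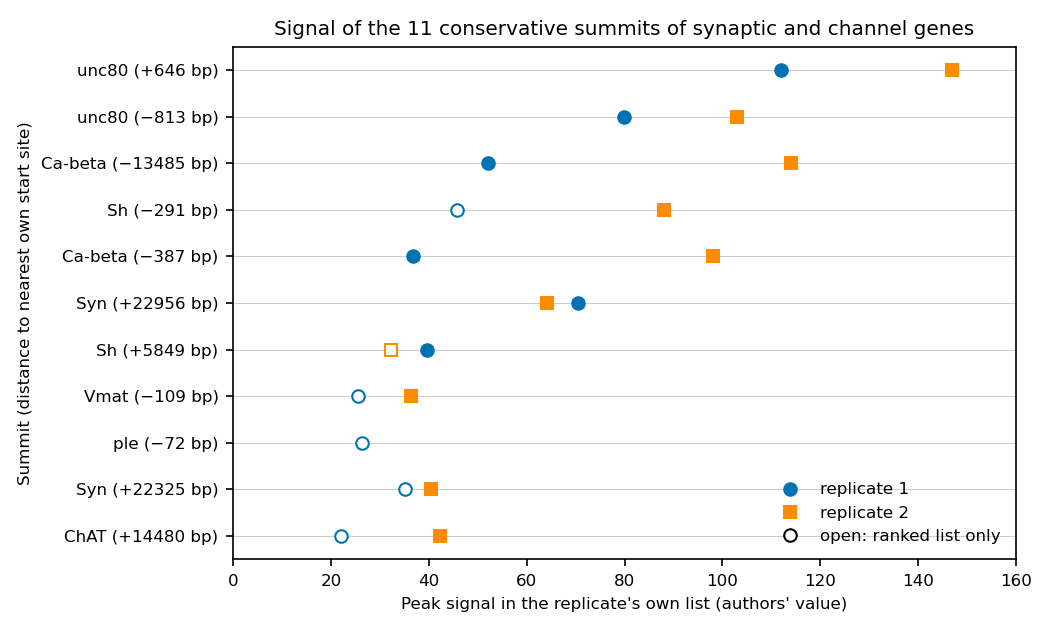
Signal of the 11 conservative summits (rows, with the signed distance to the nearest own start site; negative is upstream) in each replicate's own list (x axis, the authors' value; blue circles replicate 1, orange squares replicate 2). Filled symbols are in the replicate's thresholded list and open ones only in its ranked list. Both unc80 peaks and both Ca-beta peaks are filled in both replicates, and ple has no symbol for replicate 2.

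The 11 peaks had signals of 61.2 to 262 with a median of 131, against a median of 85.6 over all conservative peaks, and 6 of them were above that median. The thresholded lists of both replicates held 5 of the 11, against 45% of all conservative peaks. The ranked lists of both held 10, against 88.4%. The 5 repeated peaks were the 2 of unc80, the 2 of Ca-beta and the stronger peak of Syn. The peaks of Vmat, ple and ChAT and the weaker peak of Syn were between 61.2 and 64.8, and 22.0% to 26.9% of conservative peaks had a lower signal.

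Counts in each replicate followed the same lines. In the thresholded list of replicate 1, 2 genes had a summit at a start site, against 15.8% of all protein-coding genes, and 4 had a summit in the body, against 11.3%. In that of replicate 2, 4 had a summit at a start site, against 19.3%, and 6 in the body, against 13.3%. In both replicates the share at start sites was below that of all genes, and the share in bodies, without regard to length, was above it. Among genes of 20 kb or longer, replicate 1 had a summit at a start site in 1 of 21 synaptic and channel genes, against 35.9% of all long genes, and in the body in 3, against 50.8%. Replicate 2 had 3 of 21 at a start site, against 43.9%, and 5 in the body, against 55.0%. With length kept in view, both shares were thus below those of all long genes in each replicate.

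The ranked lists, which take in weak peaks, reached most of the genes. In the ranked list of the conservative peaks, which holds 47103 peaks and reaches an IDR of 0.69, 23 of 32 genes had a summit at a start site, against 60.2% of all genes, and 24 had one in the body, against 49.7%. Among genes of 20 kb or longer the order was the other way, with 16 of 21 at a start site (76.2%), against 85.7% of all long genes, and 17 in the body, against 93.7%. At start sites the ranked list of replicate 1 reached 27 of 32, against 62.7%, and that of replicate 2 reached 23, against 61.4%. For long genes it was 18 of 21 in replicate 1 (85.7%), against 85.9%, and 17 of 21 in replicate 2, against 87.2%. nrv3, Shaw and Snap25 had no ranked peak at a start site in any of these 3 lists. Most of these ranked peaks do not meet the IDR limit.

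The strongest start-site peak of each gene had a median signal below that of all genes with such a peak and above that of the whole ranked list. In replicate 1 the median over the 27 genes was 16.4, with a range of 8.91 to 112, against 20.7 over all genes with such a peak and 13.2 over the list. In replicate 2 it was 21.9 over 23 genes, with a range of 9.01 to 147, against 25.3 over all genes and 13.9 over the list. Of the 27 genes with no conservative summit at a start, 22 had a ranked peak there in replicate 1, with a median of 15.4 and a highest value of 43.3. In replicate 2, 19 had one, with a median of 19.0 and a highest value of 35.5. The highest value belonged to Syx1A in both.

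**Figure D3:**
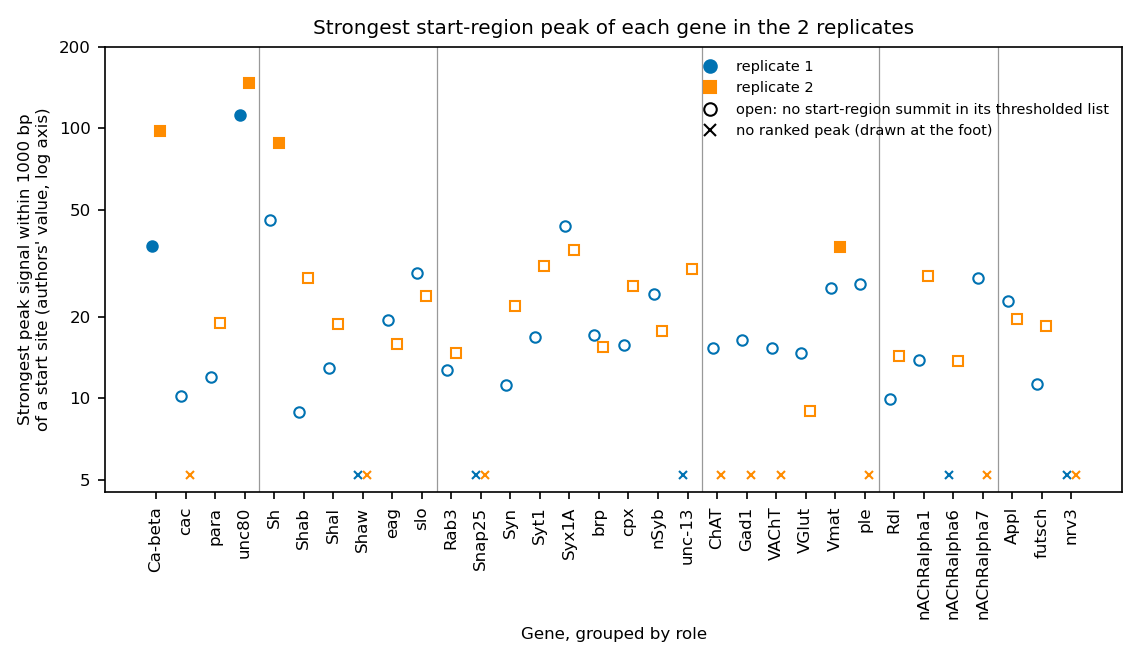
Strongest peak within 1000 bp of a start site for each of the 32 genes, grouped by role (x axis), in the ranked list of each replicate (y axis, the authors' signal, log scale; blue circles replicate 1, orange squares replicate 2). Filled symbols mark genes with such a summit in the replicate's thresholded list, and crosses at the foot mark no ranked peak. unc80, at 112 and 147, stands highest in both replicates, and Shaw, Snap25 and nrv3 have crosses in both.

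Taking only the strongest peaks of each ranked list showed where the genes enter. At the very top the counts were small and the replicates differed in their order against all genes. Replicate 1 had 0 of the 32 genes among its strongest 500 peaks, against 2.79% of all genes, 1 (3.12%) among 1000, against 4.72%, and the same 1 among 2000, against 8.81%. Replicate 2 had 1 (3.12%) among 500, against 2.73%, 2 (6.25%) among 1000, against 4.91%, and 3 (9.38%) among 2000, against 8.79%. Among the strongest 5000 peaks of replicate 1, 4 of the 32 genes (12.5%) had a summit at a start site, against 19.2% of all genes and 44.4% of genes of 20 kb or longer. Among those of replicate 2 it was 3 (9.38%), against 19.0% of all genes and 43.3% of long genes. Among the strongest 10000 it was 10 (31.2%) in each replicate, close to the 31.6% of all genes in replicate 1 and the 31.7% in replicate 2. At the strongest 20000 peaks the count was 19 (59.4%) in each replicate. All genes then stood at 46.1% in replicate 1 and 45.1% in replicate 2, and long genes at 75.8% in replicate 1 and 76.7% in replicate 2. In both replicates the share of synaptic and channel genes was thus below that of all genes at 5000 peaks and above it at 20000, and below that of long genes at both. These sets are cumulative, so each holds the stronger one.

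**Figure D4:**
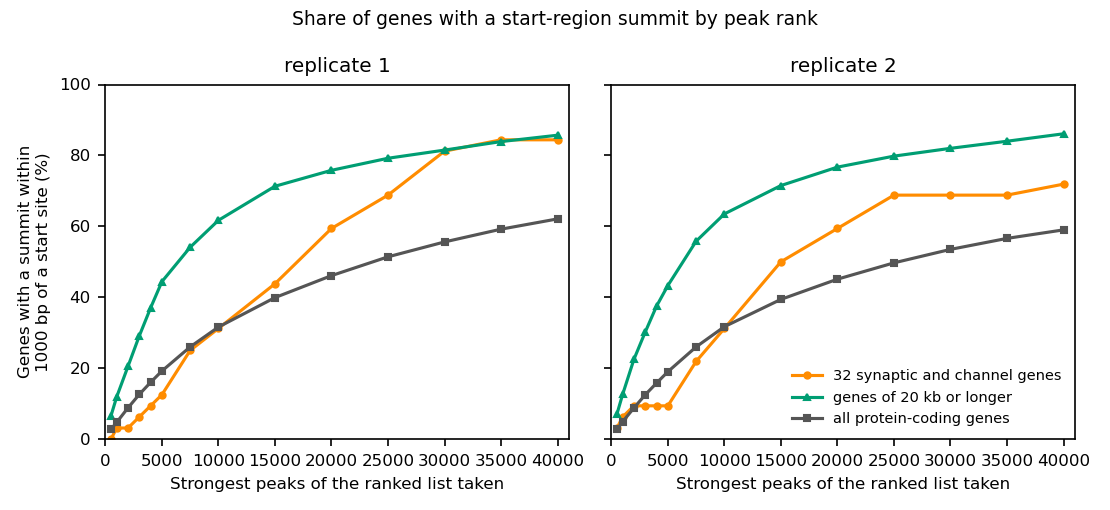
Share of genes with a summit within 1000 bp of a start site (y axis, %) when only the strongest peaks of a ranked list are taken (x axis, number of peaks), for replicate 1 (left) and replicate 2 (right). Orange circles are the 32 synaptic and channel genes, green triangles genes of 20 kb or longer and grey squares all protein-coding genes. The orange line lies below the grey one at 5000 peaks and above it at 20000 in both panels, and up to 2000 peaks it lies slightly above the grey one in replicate 2.

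Ranked summits were also sparse along the bodies. The ranked list of the conservative peaks held 16.8 summits per 100 kb in the bodies of the 32 genes, against 37.9 in all genes and 36.9 in genes of 20 kb or longer. Replicate 1 gave 15.1, against 33.3 in all genes and 30.7 in long genes, and replicate 2 gave 14.3, against 36.9 and 36.4. The 25 genes without a conservative summit held 139 of these ranked summits in their 1066 kb. The order was therefore the same in both replicates. Snap25, around the centromere, held 2 summits of the ranked list of the conservative peaks over 225 kb. On chromosome 4, unc-13 held 0 summits of that list over 44.5 kb. The ranked list of replicate 1 also had 0 in its body, and that of replicate 2 had 2. In replicate 2 the strongest start-site peak of unc-13 had a signal of 30.0 and an IDR of 0.0163, outside the limit. No density was computed without these genes.

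The sequences printed above differ in their E-boxes. The 9-base sequence CAACAGGTG or its complement was in 3 of the 11 windows, each the summit base and 50 bases on either side, against 0.871% of the 6776 windows around all conservative summits. These are both unc80 windows, which belong to 1 gene, and the Ca-beta window at the internal start site. The core CAGGTG or CACCTG, which lies inside the 9 bases, was in the same 3 windows and no other, against 3.28% of all windows. Any CANNTG, which takes in both, was in 8 windows, against 36.4%. The 3 windows without it are those of ple, the start-site summit of Sh and the summit of Syn at the Timp start. Each motif was searched on both strands.

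Other short sequences were at or near their general shares. GAGAG or CTCTC, the site of GAGA factor, was in 2 of 11 windows, against 19.6% of all windows. TATAAA or its complement was in 1, that of ChAT, against 16.8%. Runs of AAAAAA or TTTTTT were in 3, namely both Sh windows and the deep intronic Ca-beta window, against 32.1%. GC content had a median of 48.5% over the 11 windows, with a range of 21.8% to 61.4%, against a median of 36.6% over all windows. The Ca-beta summits were the extremes, with 21.8% GC in the deep intron and 61.4% at the internal start site.

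Copies of CAACAGGTG were next counted in and within 1000 bp of the 32 genes, bound or not. There were 10 copies in 7 genes, and 3 of them (30%) had a conservative summit within 50 bp, against 4.56% of all 1381 copies on the main arms. The sets are unlike, since the 1381 were not limited to genes and their surroundings. The 3 copies lie at 2 genes and are those of the same 3 windows counted above. The copies at unc80 lay 0 and 14 bp from the summit and the copy at Ca-beta 38 bp. The other 7 copies had no summit within 50 bp: 2 in introns of Sh, 1 in an intron of Syn, 1 in a coding exon of nAChRalpha7, 1 in a noncoding exon of nAChRalpha6, 1 downstream of slo and 1 downstream of unc80. The last was 267 bp from a conservative summit. The same letters therefore occurred with and without a summit within 50 bp. The unc80 copy that had no such summit lies downstream of the gene and not within it.

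Another 64 neuronal genes, sorted into the same roles but outside the list, had more peaks. A conservative summit lay at a start site in 26 of 64 (40.6%), against 23.1% of all genes, and in the body in 19 (29.7%), against 15.7%. By role, a summit at a start site was present in 3 of 14 genes of vesicles and release, 4 of 7 of sodium and calcium channels, 5 of 10 of potassium channels, 5 of 13 of transmitter synthesis and transport, and 3 of 14 receptor genes. All 6 genes filed under pump, cytoskeleton and membrane had one. elav was filed there too, although it encodes an RNA-binding protein. Most of these genes are shorter, and among the 25 of 20 kb or longer the order turns: 11 (44%) had a summit at a start site, against 49.6% of all long genes, and 10 (40%) in the body, against 60.8%. Their bodies held 2.43 conservative summits per 100 kb, against 5.21 in all genes, and 21.7 ranked summits per 100 kb, against 37.9. Bodies sparser in summits than those of all genes were thus found in both lists, with values of 0.672 and 16.8 in the 32 genes. The values of the 32 genes include Snap25, with 225 kb, 0 conservative and 2 ranked summits, and were not computed without it. Against all long genes both lists had lower shares, in the body and at start sites. The 64 were chosen among many neuronal genes, and with earlier results of these data known. That choice may bear on the difference between the lists, which was not tested.

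The 12 strongest of these include partners of the genes above. unc79, whose protein works with that of unc80 in the sodium leak channel, had a signal of 480 with its summit 368 bp upstream, at 213 in replicate 1 and 257 in replicate 2. The pore gene of that channel, na, had no conservative summit at a start site. unc79 held 2 copies of CAACAGGTG, both in coding exons and both without a summit within 50 bp. Hk, the beta subunit of the Shaker channel, had a signal of 208 and stj, a calcium channel subunit, 259. The others were elav at 410, the glutamate receptor gene Nmdar1 at 292, the acetylcholinesterase gene Ace at 237, the potassium channel genes Elk at 180 and Irk1 at 158, the synaptic scaffold gene dlg1 at 131, the receptor gene Grd at 117, the vesicular transporter gene prt at 115 and the sodium channel gene NaCP60E at 108. The summits of Nmdar1, Ace, Irk1, Grd and NaCP60E each lay within 1000 bp of the start of another protein-coding gene as well. That of Ace lay 827 bp from its start and 12 bp from that of CG11686. That of Grd lay 281 bp from its start and 218 bp from Ir75c, and that of NaCP60E 119 bp and 63 bp from RpL41. The count of 26 includes such genes. The NaCP60E summit had no ranked peak within 100 bp in replicate 1. Among the 19 copies of CAACAGGTG in or near these 64 genes, the copy at prt was the only 1 with a conservative summit within 50 bp.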

How the data were processed

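ChIP-seq peak lists of 2 biological replicates of CG12605-eGFP pupae were used, 8 lists in all on the dm6 assembly, per the labels. The signal of each peak, the integer score and the summit offset were deposited by the authors, and the score follows the IDR and not the height. Aligner, peak caller and versions were not given in the sources used here. Read counts and the control were not analysed here.

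Each list was read with Python 3.11.15, pandas 2.3.3 and numpy 2.4.6. Summits (counting from 1) were placed on Ensembl release 115 start sites and gene bodies on arms X, 2L, 2R, 3L, 3R and 4. A replicate's signal is that of its own peak with a summit within 100 bp. Of the ranked lists of the series, the one holding every conservative peak was set beside that list. Motifs were searched within 50 bp of summits in the RefSeq Release 6 sequence. Counting was tested on simulated peaks.

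All genes of the list are named, with full values for those with a conservative summit, and of the 64 other neuronal genes the 12 strongest with a start-site summit. The members and lists were chosen with earlier results of these data known. With 1 group there is no test. Alternatives covered the list, each replicate alone, the distance limit, start sites, peak overlap and signal.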

Additional observations from a re-analysis of the deposited data

How the results depend on the processing

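The count of synaptic and channel genes with a summit at a start site, 5 of 32, moved most with the choice of start site and list. It was 2 with the 5′ end of the gene alone (unc80 and ple), against 21% of all genes, 3 with the stronger part of the peaks by signal, against 13.9%, and 8 at 2000 bp, against 28.7%. With a replicate left out it was 2 to 4: 2 without replicate 2, against 15.8%, and 4 without replicate 1, against 19.3%. Summits in the bodies, 9, numbered 5 in the stronger part, 5 outside 1000 bp of own start sites and 5 to 9 with a replicate left out. The count of genes with a body summit, 6, ran from 4 to 7 over 9 alternatives, with 4 in the stronger part, against 9.95% of all genes. The start-site count of the 64 other neuronal genes, 26, was 16 in the stronger part, against 13.9% of all genes. It was 12 without replicate 2, against 15.8%, and 19 without replicate 1, against 19.3%. At 500 bp the start-site count of the synaptic and channel genes was 4, against 19.3%, and in the series-level list 5, against 23.6%. The genes in the series-level list were not all the same. There cpx took the place of ple at start sites and of ChAT in bodies. With the peaks that the conservative list leaves out, 6 genes had a start-site summit, against 23.7% of all genes, and 7 a body summit, against 15.9%. These last and the alternatives on Timp, on ChAT and VAChT and on unc-13 and Snap25 were chosen after seeing the data. No paired analysis was possible because there is 1 group. Depth is unknown, so a peak missing from a list cannot be told apart from one below detection.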
